A study of Mus musculus with 5 samples.

Results

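The 8 genes described here encode bromodomain proteins and other chromatin factors tied to the removal of histones from spermatid chromatin: Brdt, Brd2, Brd3, Chd4, Chd5, Rnf8, Cdyl and Epc1. They were taken by name from the deposited expression table of mouse testis, where they account for 24 of 55350 transcript rows, and each of the 24 rows was found by its transcript identifier in the deposited binding table of 55419 rows. They are 8 of 21671 named genes. All 8 were among the 12408 named genes whose signal averaged 1 or more over both RNA libraries, called expressed below. The samples were testes of 3-month-old mice. The groups were knockout RNA (Taf7l-/Y males), wild-type RNA, TAF7L chromatin immunoprecipitation (ChIP) and Pol II ChIP. Each RNA library came from 6 extracts pooled per genotype. The ChIP libraries carry a wild-type label, although their shared protocol, which names 10 mice, speaks of wild-type and knockout chromatin. An IgG control was made as well but has no column in the binding table. Each condition was 1 library, so no test across samples was possible, and differences are described by size. The sources used here do not describe the deleted part of Taf7l.

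In elongating spermatids most histones are exchanged for transition proteins and then for protamines. The exchange follows acetylation of histone H4, which bromodomain proteins read, and it involves ubiquitin ligases and ATP-driven nucleosome remodellers. TAF7L is a paralogue of TAF7, a subunit of the general transcription factor TFIID, and is abundant in male germ cells. BRDT is the member of the BET bromodomain family made in male germ cells, and it binds acetylated H4 in spermatids. BRD2 and BRD3 are its widely expressed relatives. CHD5, made mainly in testis and nervous tissue, and CHD4, made widely, are remodelling ATPases of the NuRD type. RNF8 is a ubiquitin ligase that modifies histones at DNA breaks and in spermatids, CDYL is a chromodomain protein that acts as a transcriptional corepressor, and EPC1 is a scaffold of the NuA4 (TIP60) acetyltransferase complex.

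Promoter sequence is shown for 4 members, because the binding table scores TAF7L, Pol II or both at their promoters. Brdt was taken as the germ-cell BET gene. Chd5 and Chd4 were taken as paralogues of which only Chd5 was at least 2-fold lower in the knockout. Cdyl was taken as the only member without a TAF7L score at any of its starts. Each stretch runs 5′ to 3′ from 250 bases before to 50 bases after an annotated start, from RefSeq (GRCm38.p6), whereas the deposited tables use mm9. RefSeq starts of 7 of the 8 members were used, 13 starts in all, some of which overlap. Epc1 was left out of this step, so the counts below do not cover it. Capitals mark matches, on either strand, to the GC box GGGCGG, the CCAAT box, the E-box CACGTG, the TATA box TATAAA or the cyclic AMP response element TGACGTCA. Runs of capitals longer than a single match are overlapping matches.
Brdt start, chr5:107330944-107331243, plus strand: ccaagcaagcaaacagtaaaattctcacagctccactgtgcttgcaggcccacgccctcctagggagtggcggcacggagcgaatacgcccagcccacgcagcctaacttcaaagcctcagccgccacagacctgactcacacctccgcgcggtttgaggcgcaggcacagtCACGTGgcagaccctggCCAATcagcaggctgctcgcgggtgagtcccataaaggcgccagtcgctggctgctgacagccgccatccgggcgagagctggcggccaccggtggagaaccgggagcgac
Chd5 first start, chr4:152338401-152338700, plus strand: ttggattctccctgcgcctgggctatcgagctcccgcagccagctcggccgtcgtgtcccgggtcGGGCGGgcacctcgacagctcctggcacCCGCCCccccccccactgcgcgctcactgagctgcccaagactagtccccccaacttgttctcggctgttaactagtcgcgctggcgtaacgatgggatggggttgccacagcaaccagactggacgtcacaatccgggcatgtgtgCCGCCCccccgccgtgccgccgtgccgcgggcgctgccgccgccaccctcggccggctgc
Chd4 first start, chr6:125095731-125096030, plus strand: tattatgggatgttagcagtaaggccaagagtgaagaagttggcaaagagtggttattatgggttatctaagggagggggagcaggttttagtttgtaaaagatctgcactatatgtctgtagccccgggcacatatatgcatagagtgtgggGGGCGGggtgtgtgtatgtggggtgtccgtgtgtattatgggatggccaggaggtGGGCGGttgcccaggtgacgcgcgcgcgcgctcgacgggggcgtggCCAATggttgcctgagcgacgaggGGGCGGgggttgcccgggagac
Cdyl outer start, chr13:35659612-35659911, plus strand: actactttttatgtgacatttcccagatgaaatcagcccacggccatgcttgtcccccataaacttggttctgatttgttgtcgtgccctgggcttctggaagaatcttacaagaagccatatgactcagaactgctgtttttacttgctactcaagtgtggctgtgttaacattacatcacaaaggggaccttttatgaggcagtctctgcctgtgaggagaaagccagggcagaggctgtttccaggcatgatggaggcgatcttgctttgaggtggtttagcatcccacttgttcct
Cdyl inner start, chr13:35741152-35741451, plus strand: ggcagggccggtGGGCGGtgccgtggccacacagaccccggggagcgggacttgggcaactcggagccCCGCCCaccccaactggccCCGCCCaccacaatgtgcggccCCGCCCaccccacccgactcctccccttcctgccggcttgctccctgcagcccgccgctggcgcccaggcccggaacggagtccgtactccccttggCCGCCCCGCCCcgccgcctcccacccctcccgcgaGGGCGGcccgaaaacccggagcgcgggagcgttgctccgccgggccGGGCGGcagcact
The Cdyl starts differ in composition. The outer stretch holds 3 CG pairs and is 47.0% G and C, and the inner stretch holds 34 CG pairs and is 78.0% G and C. Over all 32851 promoters of the table the median was 7 CG pairs and 52.7% G and C. The distance between these RefSeq starts is 81540 bases, the same as that between the outermost and innermost Cdyl starts of the expression table in mm9. The GC box was present 8 times in the inner Cdyl stretch, 3 times each in those of Chd5 and Chd4, and 0 times in those of Brdt and of the outer Cdyl start. It was found at 10 of the 13 member starts, against 35.7% of all promoters. The CCAAT box stood at the Brdt and Chd4 starts shown (37.4% of all promoters), and the E-box at the Brdt start (7.15%). The TATA box was at 0 of 13 member starts (13.6% of all promoters), as was the full cyclic AMP response element (1.79%). These are matches of letters and not measured sites.

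The RNA libraries differed in ways that touch every value below. The labels put the depth of an RNA library at 100 to 200 M reads, 1 M standing for 1e+06. The deposited signal has no named unit, so levels are compared between libraries and not between genes. The signal of Taf7l itself (chromosome X, 130994654 to 131011029) was 2.04 in the knockout and 13.2 in the wild type. The median log2 difference of all expressed genes was 0.40, knockout over wild type, on the scale log2(signal + 1), which understates the change of low genes. A difference rescaled so that this median is 0 (knockout signals multiplied by 0.711) is given for the 8 genes, and for other named genes where it turns a direction. Markers of elongating spermatids were lower in the knockout, all 8 of 8 by at least 2-fold, with a summed signal of 12013 in the knockout and 67071 in the wild type. Round spermatid markers summed to 426 in the knockout and 763 in the wild type, with 4 of 8 at least 2-fold lower. The 11 spermatocyte markers summed to 546 in the knockout, or 388 after rescaling, and to 437 in the wild type. Syce1 and Syce3 make up most of that sum, and 10 of the 11 differences were positive, 8 of 11 after rescaling, with a rescaled median of 0.34. Spermatogonial markers (10) summed to 129 in the knockout and 56.2 in the wild type, and the 11 Sertoli cell markers found to 1504 in the knockout and 756 in the wild type. Macrophage and leukocyte markers summed to 99.4 in the knockout and 40.9 in the wild type. Leydig cell markers summed to 1537 in the knockout and 1902 in the wild type, a sum led by Insl3 with 1052 in the knockout and 1686 in the wild type, whereas 5 of the 7 differences were positive and their median was 0.89. Peritubular muscle markers summed to 179 in the knockout and 246 in the wild type, a sum led by Actg2 with 77.4 in the knockout and 200.1 in the wild type, whereas 5 of the 6 differences were positive, with a median of 0.89 as well. Epididymal markers summed to 189 in the knockout and 0.79 in the wild type, where Defb2 and Lcn5 were listed at 0. Crisp1 led the knockout sum with 75.9. Lcn5, Lcn8 and Cst11 were low in both libraries, with 0.06, 0.01 and 0.33 in the knockout. The part of these shifts in the values of the 8 genes was not tested, and in bulk testis fewer cells of a type and less RNA per cell cannot be told apart.

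Among the 8 genes, Chd5 and Cdyl were at least 2-fold lower in the knockout library, and the other 6 lay within 2-fold. None was at least 2-fold higher. Of all 12408 expressed genes 7.32% were at least 2-fold lower and 7.37% at least 2-fold higher. After rescaling the same 2 members were lower and 0 were higher, beside 12.7% lower and 1.03% higher among all expressed genes. The median log2 difference of the 8 genes was 0.13, or -0.35 after rescaling, against 0.40 for all expressed genes before it. For each gene this uses the transcript row with the highest mean signal. Counted over transcripts, 5 of the 24 rows were at least 2-fold lower, against 6.68% of the 29058 transcripts with a mean of at least 1, and 0 of 24 at least 2-fold higher, against 5.71%. All 5 belonged to Chd5 and Cdyl, and rows of a gene share exons and reads. The table also deposits a standard deviation for each mean, over what is not stated. It cannot be read as a spread between animals, since each genotype was 1 pool. The knockout and wild-type means lay farther apart than the sum of both deposited standard deviations in 19 of 24 rows, a distance that 65.7% of all these transcripts exceeded.

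**Figure D1:**
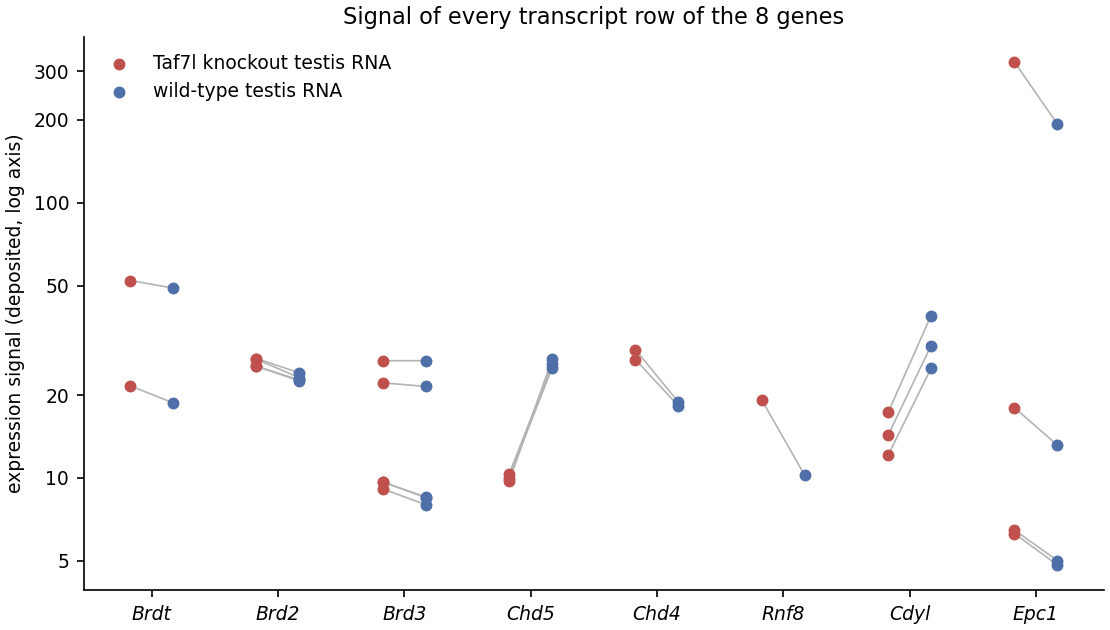
Expression signal of each of the 24 transcript rows (log axis) in knockout RNA (red, left) and wild-type RNA (blue, right), with a line joining the values of a row. The 3 Chd5 rows lie near 10 in the knockout and at 25.1 to 26.9 in the wild type, while the Brdt, Brd2 and Brd3 rows are nearly level in these signals, which are not rescaled.

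The BET genes among the 8 were close to level in both libraries before rescaling. Brdt (chromosome 5, 107760212 to 107816077) had a signal of 52.1 in the knockout and 49.0 in the wild type in its shorter row, which ends at 107779760. The deposited standard deviations were 3.75 in the knockout and 3.61 in the wild type, so that the difference was smaller than their sum. The row over the full span had 21.6 in the knockout and 18.7 in the wild type, with deposited standard deviations of 1.14 in each. The shorter row thus had 2.41 times the signal of the full row in the knockout and 2.62 times in the wild type. The log2 differences were 0.09 and 0.20, both below the median of all genes, and rescaling turned them to -0.39 and -0.27.

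Brd2 (chromosome 17, 34248963 to 34259241) had 4 rows that moved together. Their signals were 25.5 to 27.1 in the knockout and 22.5 to 24.1 in the wild type. The log2 differences of 0.16 to 0.21 became negative after rescaling, -0.31 to -0.26. In each of the 4 rows the deposited means differed by more than the sum of their standard deviations.

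Brd3 (chromosome 2, 27301100 to 27363182) differed between its rows. The row from the outer start, at 27363182, had 26.7 in each library, a log2 difference of 0.00. The 3 rows from the inner starts, at 27331193 and 27330918, had 9.12 to 9.69 in the knockout and 7.99 to 8.53 in the wild type, log2 differences of 0.16 to 0.17. A short internal row, which holds neither the outer nor the inner starts, had 22.2 in the knockout and 21.5 in the wild type, a log2 difference of 0.04. The outer row also differs from the inner ones at its other end, 27308352 against 27301100. The difference between rows therefore cannot be assigned to the start. After rescaling all 5 rows were negative, -0.47 to -0.26. The outer row had 2.77 times the signal of the highest wild-type inner row in the knockout and 3.12 times in the wild type.

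The CHD remodellers went opposite ways. Chd5 (chromosome 4, 151712759 to 151764303) had signals of 10.3 and 10.0 in the knockout in its full-length rows, and 25.9 and 25.1 in the same rows in the wild type. A row that covers only the 3′ part, from 151751077, had 9.71 in the knockout and 26.9 in the wild type, with deposited standard deviations of 0.47 in the knockout and 0.99 in the wild type. The wild-type signal was thus 2.78 times that of the knockout in the 3′ row and 2.51 and 2.50 times in the full-length rows. The log2 differences were -1.38 for the 3′ row and -1.25 and -1.24 for the others, or -1.82, -1.69 and -1.68 after rescaling. Only 3.41% of expressed genes had a lower value than the 3′ row. The authors' deposited table gives log2 ratios of wild type over knockout, without this pseudocount, of 1.32 to 1.47 for Chd5. Chd4 (chromosome 6, 125046180 to 125080519) had 29.2 and 26.9 in the knockout and 18.9 and 18.3 in the same rows in the wild type. Its log2 differences were 0.61 and 0.53, beside a median of 0.40 for all expressed genes, or 0.13 and 0.06 after rescaling.

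Rnf8, the ubiquitin ligase gene (chromosome 17, 29751775 to 29778604), had the highest positive difference of the 8. Its only row had 19.2 in the knockout and 10.2 in the wild type, with deposited standard deviations of 2.18 in the knockout and 1.61 in the wild type. The log2 difference was 0.85 and the rescaled one 0.39. Of all expressed genes, 85.1% had a lower value.

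Cdyl (chromosome 13, 35751730 to 35965933) was lower in the knockout in each of its rows. The row from the outer start had 17.3 in the knockout and 38.9 in the wild type, with deposited standard deviations of 1.28 in the knockout and 1.66 in the wild type. The row from 35830325 had 14.3 in the knockout and 30.3 in the wild type, and that from the innermost start at 35833270 had 12.1 in the knockout and 25.0 in the wild type. The log2 differences were -1.12, -1.03 and -0.99, so the innermost row lay just inside 2-fold. After rescaling they were -1.58, -1.49 and -1.44, so each row was past 2-fold. The wild-type signal was 2.25 times that of the knockout in the outer row and 2.07 times in the innermost row. Because the rows share most of their length, the data do not show which start the RNA came from.

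Epc1 (chromosome 18, 6435948 to 6516085) was read differently by its rows. The full-length rows had 6.46 and 6.28 in the knockout and 5.01 and 4.82 in the wild type, log2 differences of 0.31 and 0.32. The row with the highest signal spans only 84 bases, 6490561 to 6490644, and had 325 in the knockout and 193 in the wild type. Its deposited standard deviations, 364 in the knockout and 273 in the wild type, exceed its means, so its log2 difference of 0.75 is less certain than those of the full-length rows. The remaining row, from 6489136 to 6490854, had a log2 difference of 0.43, with means that differed by less than the sum of their deposited standard deviations. After rescaling it was -0.04 and the full-length rows turned to -0.10 and -0.09, whereas the 84-base row stayed positive at 0.26.

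**Figure D2:**
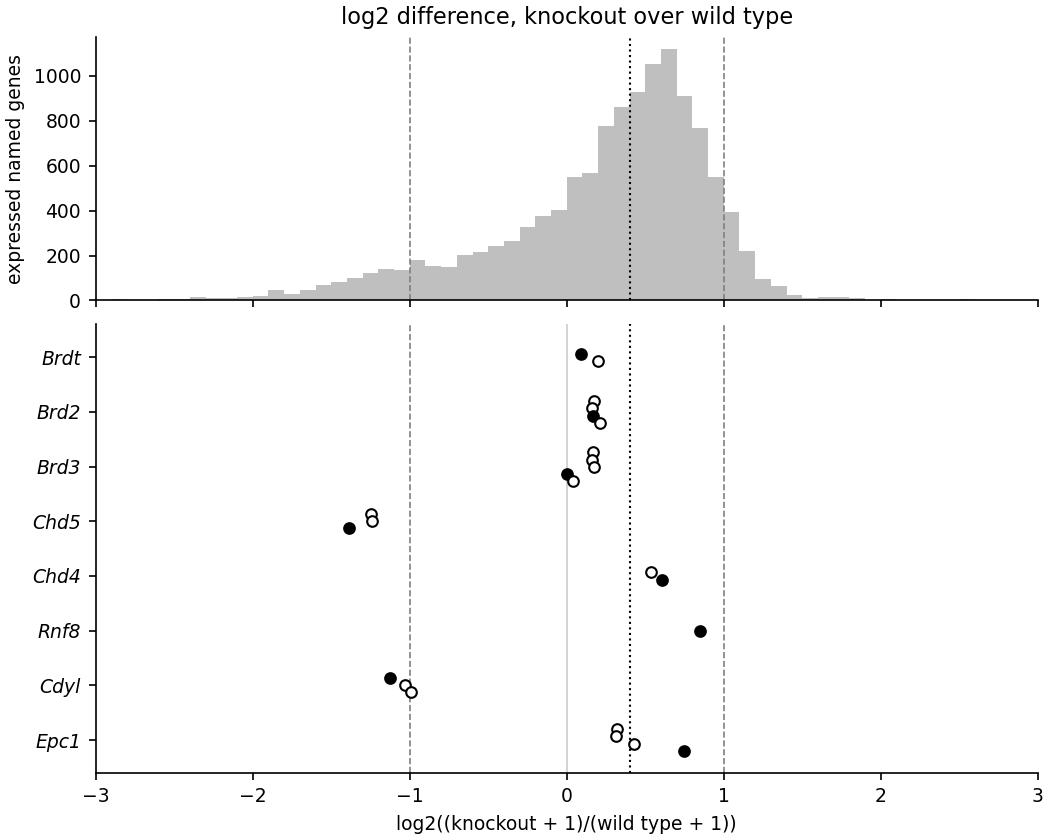
Upper panel, number of expressed named genes by log2 difference, knockout over wild type, with pseudocount 1; 63 genes lie outside the axis. Lower panel, each transcript row of the 8 genes, filled where it is the row with the highest mean signal; dashed lines mark 2-fold and the dotted line the median of all expressed genes, 0.40. The 3 Chd5 rows and the outer and middle Cdyl rows lie left of the 2-fold line, and no row lies right of it.

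TAF7L and Pol II in wild-type testis were described for the same genes with the authors' scores, which are assigned to each transcript row in promoter, proximal and distal classes. The headers define neither the score nor the distances. A score of 0 was taken to mean that no signal was assigned. Of the 8 genes, 7 had a TAF7L promoter score in at least 1 row, against 55.1% of expressed genes. In the row with the highest mean signal 5 did, a count that was not taken over all expressed genes. All 8 had a Pol II promoter score, against 86.7%. Cdyl had a TAF7L score of 0 in all 3 classes and all 3 rows, whereas 77.8% of expressed genes had a TAF7L score in some class. A proximal TAF7L score was present at 5 of the 8 genes, against 33.8%, and a distal one at 5 of 8, against 53.6%. Counted over rows, 17 of 24 had a TAF7L promoter score, against 48.5% of the transcripts with a mean of at least 1, and 22 of 24 a Pol II promoter score, against 75.6%.

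Epc1 and Chd4 had the highest TAF7L promoter scores of the 8. Epc1 had a TAF7L promoter score of 129 and a Pol II promoter score of 1010, and of the genes with a score 90.6% were lower for TAF7L and 95.1% for Pol II. Chd4 had a TAF7L promoter score of 111 and a Pol II promoter score of 502. The TAF7L promoter score was 79.7 at Brd2, 79.5 at Rnf8, 64.5 at Brdt, 54.8 at Chd5 and 40.0 at Brd3. The Pol II promoter score of these genes was 594 at Brd2, 476 at Rnf8, 517 at Brdt, 507 at Chd5 and 469 at Brd3. Scored promoters of expressed genes had a median of 71.8 for TAF7L and of 374 for Pol II. Brdt, Chd5 and Brd3 lay below the TAF7L median and above the Pol II median. Cdyl had 0 for TAF7L and 184 for Pol II, its highest of 3 rows. Where both were scored, the TAF7L value was 8.53% of the Pol II value at Brd3 and 22.1% at Chd4, the range of the 7 genes, and 14.1% in the median of all expressed genes with both.

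The rows of a gene separated its starts. At Brd3 the inner starts had a TAF7L promoter score of 40.0 and a Pol II promoter score of 469. The outer start, whose row had the higher RNA signal, had 0 for TAF7L and 238 for Pol II in the promoter class. In the proximal class the outer row had 95.2 for TAF7L and 409 for Pol II. The same 40.0 reappears in the distal class of the outer row, as the same signal seen from another start. At Chd4 the values 111 and 60.7 swap between the promoter and proximal classes of its rows in the same manner. At Chd5 the full-length rows had 54.8 for TAF7L and 507 for Pol II, and the 3′ row had 0 for both in the promoter class. At Brd2 the promoter scores were smaller than those of the proximal class, where all 4 rows had 203 for TAF7L and 1910 for Pol II. Brdt had TAF7L signal in the promoter class alone. At Cdyl the outermost row had a Pol II promoter score of 181 and the innermost 184, and the row between them 0.

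**Figure D3:**
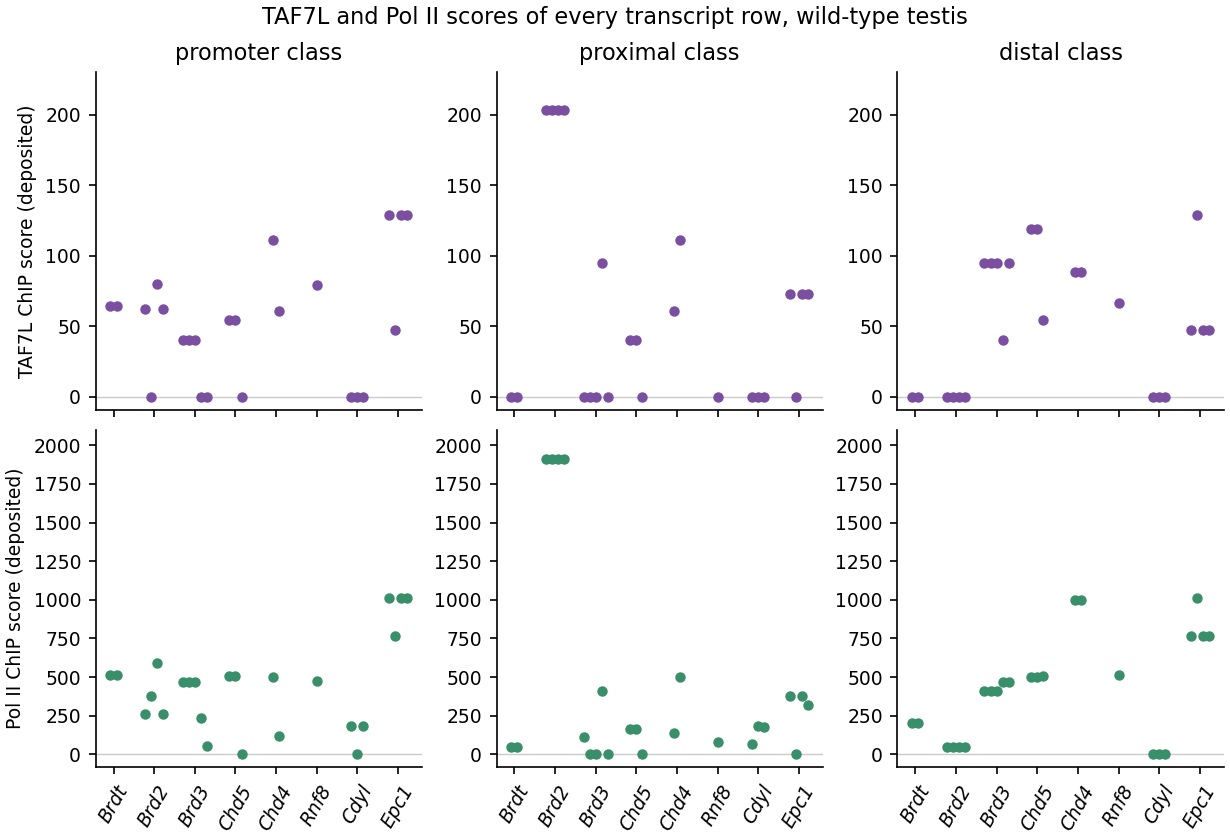
TAF7L scores (upper panels) and Pol II scores (lower panels) as deposited, by position class, with 1 point per transcript row of the 8 genes. Cdyl is at 0 in all TAF7L panels, and Brd2 has the highest proximal value of both proteins, 203 and 1910.

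The genes at least 2-fold lower in the knockout thus had different TAF7L scores, Chd5 with 54.8 and Cdyl with 0 at their promoters. Of all 908 expressed genes at least 2-fold lower, 23.7% had a TAF7L promoter score. Of the expressed genes with such a score 3.15% were at least 2-fold lower, and of those without one 12.4%. The 6 members within 2-fold all had a TAF7L promoter score in at least 1 row, beside 55.1% of all expressed genes. The share among expressed genes within 2-fold was not taken. With 8 genes and 1 library per condition, no relation between score and change was tested.

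Genes that work with the 8, or belong to the same families, were set beside them. The lists were chosen with earlier results of these data known. None of the 33 other bromodomain genes was past 2-fold in either direction with the pseudocount of 1, whereas 2 were higher and 1 was lower with a pseudocount of 0.1, and their median log2 difference was 0.43, or -0.01 after rescaling. Trim28, a corepressor and the most abundant of them, had 223 in the knockout and 146 in the wild type. Baz1b had the largest value, with 5.16 in the knockout and 2.26 in the wild type, and Trim66 the smallest, with 0.73 in the knockout and 1.86 in the wild type.

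Of 7 measured other CHD genes, 1 was past 2-fold in the higher direction and 0 in the lower, and their median log2 difference was 0.70. With a pseudocount of 0.1, 2 were higher. Chd6 was the gene past 2-fold on the first scale, with 8.26 in the knockout and 3.23 in the wild type. Its deposited standard deviations were 4.29 in the knockout and 3.06 in the wild type, so its means differed by less than their sum. Chd7 had the lowest difference, with 1.28 in the knockout and 1.98 in the wild type, and Chd1l was the most abundant, with 29.3 in the knockout and 21.2 in the wild type, a difference of 0.45 that turned to -0.02 after rescaling. Chd3, a NuRD ATPase like Chd4 and Chd5, had 18.3 in the knockout and 9.44 in the wild type. None of the 7 had a value as low as that of Chd5. After rescaling none was past 2-fold.

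Among 11 other NuRD subunits, 1 was past 2-fold higher, 0 were past 2-fold lower, and the median log2 difference was 0.59. With a pseudocount of 0.1 these counts were 2 higher and 1 lower. Rbbp7, a histone-binding subunit, had 43.6 in the knockout and 19.1 in the wild type. Mbd2, a methyl-CpG-binding subunit, had 13.9 in the knockout and 28.5 in the wild type, a log2 difference of -0.98. It was the only subunit with a negative difference before rescaling and was past 2-fold after rescaling, when Rbbp7 no longer was. Mbd3, the most abundant, had 170 in the knockout and 119 in the wild type.

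Of 16 other NuA4 genes none was past 2-fold with the pseudocount of 1 and 2 were higher with 0.1. The median was 0.43, or -0.03 after rescaling. Trrap, its large scaffold, had 18.2 in the knockout and 8.67 in the wild type, a log2 difference of 0.99. Ing3 had 2.16 in the knockout and 2.19 in the wild type, and Morf4l1, the most abundant, 1475 in the knockout and 1342 in the wild type. Kat5, the acetyltransferase, had 11.1 in the knockout and 8.06 in the wild type. Rescaling turned the difference of Morf4l1, 0.14, to -0.36 and that of Kat5, 0.41, to -0.03. A TAF7L promoter score was present at 15 of the 16 genes, beside 55.1% of expressed genes.

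In the RNF8 pathway 0 of 14 genes were at least 2-fold higher (3 with a pseudocount of 0.1) and 1 was lower, and the median log2 difference was 0.38, or -0.05 after rescaling. The lower gene was Ube2n, the ubiquitin-conjugating enzyme that pairs with RNF8, with 22.6 in the knockout and 47.3 in the wild type. Its log2 difference was -1.04, beside 0.85 for Rnf8 itself. Mdc1, the adaptor that recruits RNF8 to DNA breaks, had 36.2 in the knockout and 17.8 in the wild type. Kat8, the most abundant and an acetyltransferase of histone H4, had 56.6 in the knockout and 65.3 in the wild type.

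None of the 8 CDYL relatives and partners was past 2-fold with the pseudocount of 1, 2 were higher with 0.1, and the median log2 difference was 0.65. Cdyl2, its paralogue, had 5.01 in the knockout and 5.15 in the wild type, the lowest difference of the list. Rest, a repressor that works with CDYL, had the largest, with 3.80 in the knockout and 1.51 in the wild type. Ehmt2, a histone H3 methyltransferase listed under the name G9a, was the most abundant, with 57.4 in the knockout and 55.9 in the wild type, a difference of 0.04 that turned to -0.45 after rescaling.

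Of 16 other genes of the histone-to-protamine exchange, 9 were at least 2-fold lower and 0 higher, beside 7.32% lower and 7.37% higher among all expressed genes, and the median log2 difference was -1.21. The differences of 6 of the 16 were positive, from 0.04 to 0.94, and of 3 after rescaling. With a pseudocount of 0.1, 1 of them was at least 2-fold higher. Prm1, a protamine, was the most abundant in the wild type, with 2991 in the knockout and 17005 in the wild type, and Prm2 had the lowest difference, -2.86. Sirt1, a deacetylase, had the largest, with 6.57 in the knockout and 2.96 in the wild type. Psme4, the proteasome activator that acts on acetylated histones, had 51.1 in the knockout and 76.6 in the wild type, a log2 difference of -0.58. It was past 2-fold after rescaling. Chd5 and Cdyl, at -1.38 and -1.12, lay closer to zero than the protamine and transition protein genes, which ranged from -2.86 to -2.07. The remaining exchange genes at least 2-fold lower were H1fnt at -1.80, H2afb1 at -1.69, Hils1 at -1.32 and Camk4 at -1.11. Chd5 and Cdyl thus lay within the range of the lower exchange genes. Of the listed exchange genes 4, Prm1, Prm2, Tnp1 and Tnp2, are also among the elongating spermatid markers above.

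**Figure D4:**
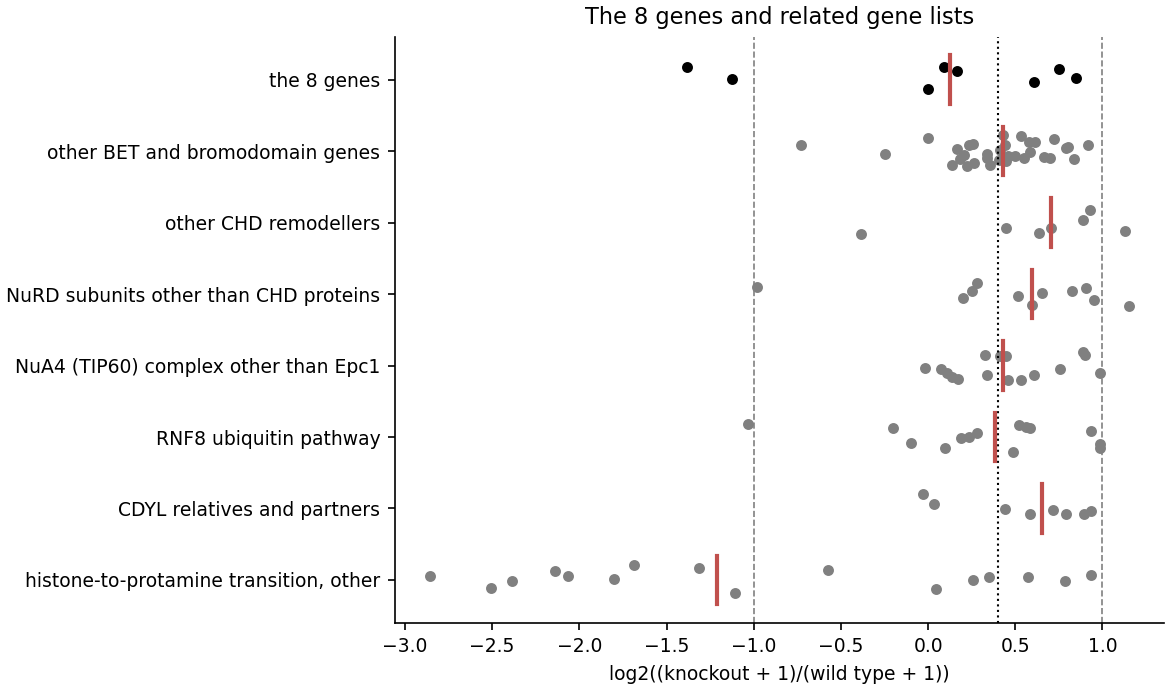
log2 difference, knockout over wild type, of the 8 genes (black) and of the measured genes of each related list (grey, 1 point per gene, vertical position arbitrary). Red bars are list medians, dashed lines 2-fold and the dotted line the median of all expressed genes; the exchange list, with a median of -1.21, is the only one whose median lies below 0 on this scale, while after rescaling those of the other bromodomain, NuA4 and RNF8 lists, at -0.01, -0.03 and -0.05, do so as well.

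For each of the 8 genes the most similar expressed gene was found by distance over 4 values on the log2(value + 1) scale, the knockout and wild-type signals and the TAF7L and Pol II promoter scores, each from 1 library. Cdyl lay nearest to Izumo1, a sperm surface gene for fusion with the egg, at a distance of 0.15. Izumo1 had 16.3 in the knockout and 35.5 in the wild type, with promoter scores of 0 for TAF7L and 185 for Pol II. Chd5 lay nearest to Asb8, at 0.27, with 8.74 in the knockout and 23.1 in the wild type. Brdt lay nearest to Ptpdc1, Brd2 to Lancl1, Brd3 to Fam98a, Chd4 to Pnma1 and Rnf8 to Chtop, at distances from 0.09 to 0.17. Epc1, taken with its 84-base row, lay nearest to Rpl36al at 0.35, the largest distance of the 8.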

How the data were processed

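Testis RNA of 2 pools, knockout and wild type, and 3 ChIP libraries were sequenced, and 2 tables were used. The submitters' processing notes name the build mm9, Bowtie for ChIP and, for RNA, also TopHat and Cufflinks. The sources used here give no versions, no peak caller and no use made of the IgG library. Per the file headers, the deposited expression table holds the mean signal of each transcript and its standard deviation, their ratio, and a log2 ratio with the wild type over the knockout. The deposited binding table gives a score per transcript and position class, per the file headers. Read counts and strand are not given, so no interval for counting error could be computed.

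The 8 members and the gene lists were chosen with earlier results of these data known. Python 3.11 and pandas 2.3.3 were used. Of 55350 transcripts, 46939 had a gene symbol of GRCm38.p6 or an unambiguous older one, and the row with the highest mean stood for each gene. Changes were log2((knockout + 1)/(wild type + 1)) over genes with a mean of at least 1, called at 2-fold, with no p-value. The calculation was tested on simulated data. Promoter scores of a gene are the highest over its rows. From each related list the most abundant gene and the largest and smallest differences are named by rule. Chd3, Kat5, Psme4, H1fnt, H2afb1, Hils1 and Camk4 were chosen after their values were seen. Alternatives were the pseudocount, the filter, the fold, the row, rescaling and the score minimum.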

Additional observations from a re-analysis of the deposited data

How the results depend on the processing

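No paired analysis was possible because each genotype is 1 library, and for the same reason no replicate could be left out. Chd5 and Cdyl were the 2 lower members under every alternative of scale, pseudocount, filter, row and fold tried. Most of these could not have removed them. Both passed every filter, the other fold was looser, and smaller pseudocounts and rescaling could only lower their values. The longest Cdyl row is the row already used. The innermost Cdyl row, at -0.99 and just inside 2-fold, was not tried by itself. Of the 8 genes 0 were higher except at 1.5-fold, where 3 were. These were Rnf8, Chd4 and Epc1, the last by its 84-base row. The share of all expressed genes past 1.5-fold was not taken, but only 66.3% of them had a lower value than Chd4. In the rows with the longest span, Chd4 at 0.53 and Epc1 at 0.31 were below 1.5-fold. Rescaling to a median of 0 turned the median of the 8 genes to -0.35, Brdt to -0.39 and Brd2 to -0.31, and the mean over all rows turned Brd3 to 0.074. Rescaling left 0 CHD and 0 NuRD genes at least 2-fold higher and made 1 NuRD gene lower. With a pseudocount of 0.1, the genes at least 2-fold higher were 2 among other bromodomain genes, 2 among other CHD genes, 2 among NuRD subunits, 2 in NuA4, 3 in the RNF8 pathway, 2 among CDYL relatives and partners and 1 in the exchange list, and 1 other bromodomain gene and 1 NuRD subunit were lower. Of the 7 TAF7L promoter scores, 2 were at least 100. The TAF7L counts and the Pol II counts otherwise stayed within 1.5 times. The data allow no error for differences between animals.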

Other observations

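The expression table holds 3 rows under other names within the spans of these genes, which were not taken as members. A row named Fsrg3, an older name of Brdt, covers the 3′ part of that gene and had signals of 14.0 in the knockout and 11.9 in the wild type, a log2 difference of 0.21. Another, mKIAA4075, an older name of Chd4, had 26.8 in the knockout and 18.3 in the wild type, a difference of 0.53. The row mKIAA0444 lies within the 3′ part of Chd5 and had 3.59 in the knockout and 9.97 in the wild type, a difference of -1.26. The differences of these 3 rows were not rescaled. Rescaling turned those of the Brdt rows, 0.09 and 0.20, to -0.39 and -0.27. No row of another name overlapped the other 5 genes.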
